A study of Mus musculus with 8 samples.

Results

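The cadherin and protocadherin genes were taken as the protein-coding genes whose GENCODE M21 symbol starts with Cdh, Dsc or Dsg followed by a digit, or with Pcdh. The rule gave 101 genes of the 48440 that the count tables list. They comprised 5 type I classical cadherins, 13 type II classical cadherins, 5 other *Cdh* genes, 9 desmosomal cadherins, 12 non-clustered protocadherins and 57 clustered protocadherins. Of the 101, 69 lie on chromosome 18.

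Reads were counted per gene in 8 RNA sequencing libraries of mouse ES cells. The cells were collected on day 1 of in vitro differentiation towards primitive streak-like cells, without feeder cells. Differentiation was induced with the GSK3 inhibitor CHIR99021. The parental line is MK6, derived from C57BL/6J mice. Wild-type cells were compared with *Tbxt*Δexon6/Δexon6 cells, in which both copies of *Tbxt* lack exon 6, with *Tbxt*Δexon6/+ cells, which lack it on 1 copy, and with *Tbxt*insASAY/insASAY cells, which carry the human AluSx1 and AluY elements in the introns flanking exon 6. The lines are called Δ/Δ, Δ/+ and ins/ins from here on. Each genotype has 2 libraries, and those of Δ/Δ cells derive from separate clones. For the other lines the number of clones is not given in the sources used here, so the effect of a genotype cannot be told apart from that of a clone. Per the study's methods, exon 6 was deleted in cells without feeders under blasticidin. The Alu pair was inserted in cells on feeders under puromycin. The selection marker was then removed by transient Cre with ganciclovir, and single clones were isolated again. These histories cannot be told apart from the genotypes either. Each library held 24618587 to 28445952 reads on genes, and between 0.0844% and 0.117% of them fell on the 101 genes. *Tbxt* itself, counted whole, had 47 and 42 reads in wild-type, 26 and 22 in Δ/Δ, 39 and 54 in Δ/+ and 30 and 29 in ins/ins libraries. It was called lower in Δ/Δ cells (log2 fold change −0.81 ± 0.28, adjusted p = 0.036). Counts of the whole gene do not show the deletion of 1 exon.

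Cadherins are transmembrane proteins that hold cells together through calcium-dependent contacts between extracellular repeats. Classical cadherins bind catenins on the cytoplasmic side and form adherens junctions. Desmocollins and desmogleins are their relatives in desmosomes, where they anchor intermediate filaments. ES cells adhere chiefly through E-cadherin (*Cdh1*), and the passage of epiblast cells through the primitive streak is known for the replacement of E-cadherin by N-cadherin (*Cdh2*). Protocadherins have other cytoplasmic domains and are best known from neurons. The clustered *Pcdha*, *Pcdhb* and *Pcdhg* genes lie in tandem, and each *Pcdha* or *Pcdhg* transcript joins its own large first exon to constant exons that the whole cluster shares.

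The sharing of exons set what could be counted. Reads that overlap the exons of more than 1 gene on a strand are assigned to none by the counting used, so that reads of the constant exons dropped out. Between 33.2% and 68.5% of the exon bases of a *Pcdhg* gene, and between 8.56% and 61.1% of those of a *Pcdha* gene, belong to that gene alone. Levels are therefore given per kilobase of the exon bases that a gene does not share, wherever genes are compared with each other. Counts scaled to the size of the library (CPM) are used for comparisons of a gene between lines.

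The filter on low counts passed 44 of the 101 genes, which were tested. The other 57 comprised 9 genes without a read in any library, where 3 reads, the upper limit that a count of 0 allows, would be 0.108 to 0.123 CPM, and 48 genes with at most 12 reads in a library. All 5 type I classical cadherins passed, as did 6 of 13 type II cadherins, 2 of 5 other *Cdh* genes, 3 of 9 desmosomal cadherins and 7 of 9 delta protocadherins. In the clusters, 18 of 21 *Pcdhg* genes passed, against 2 of 14 *Pcdha* and 1 of 22 *Pcdhb* genes. Among the genes below the filter were *Cdh5*, the cadherin of endothelium, with at most 4 reads in a library, and the desmosomal cadherins of keratinised epithelium, *Dsg1a*, *Dsg1b*, *Dsg1c*, *Dsg3*, *Dsg4* and *Dsc1*, with at most 5. *Pcdh12*, *Pcdh15* and *Pcdh20* had at most 8 reads. The symbol *Pcdha11* is given to 2 identifiers, ENSMUSG00000007440 and ENSMUSG00000102206, which had at most 9 and 7 reads. These counts limit what could be detected at this depth and do not show that the genes are silent.

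*Cdh1* stood far above the other members in every line. Its level per kilobase in wild-type cells was 173 ± 7.78 CPM per kb (SD, n = 2), followed by *Dsg2* at 16.4 ± 1.21, *Dsc2* at 9.90 ± 0.843, *Pcdhgc3* at 7.39 ± 0.298 and *Cdh3*, which encodes P-cadherin, at 6.23 ± 0.224 CPM per kb. *Cdh24* at 3.75 ± 0.156 and *Pcdh1* at 3.61 ± 0.160 CPM per kb did not differ beyond their spread. *Cdh2* came next at 2.74 ± 0.217 CPM per kb. In Δ/+ cells *Pcdhgc3* stood second at 14.4 ± 0.208 CPM per kb, above *Dsg2* at 11.6 ± 0.994. *Cdh1* took 68.2% and 68.3% of the reads on members in the wild-type libraries and 55.7% and 57.2% in the Δ/+ libraries.

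**Figure D1:**
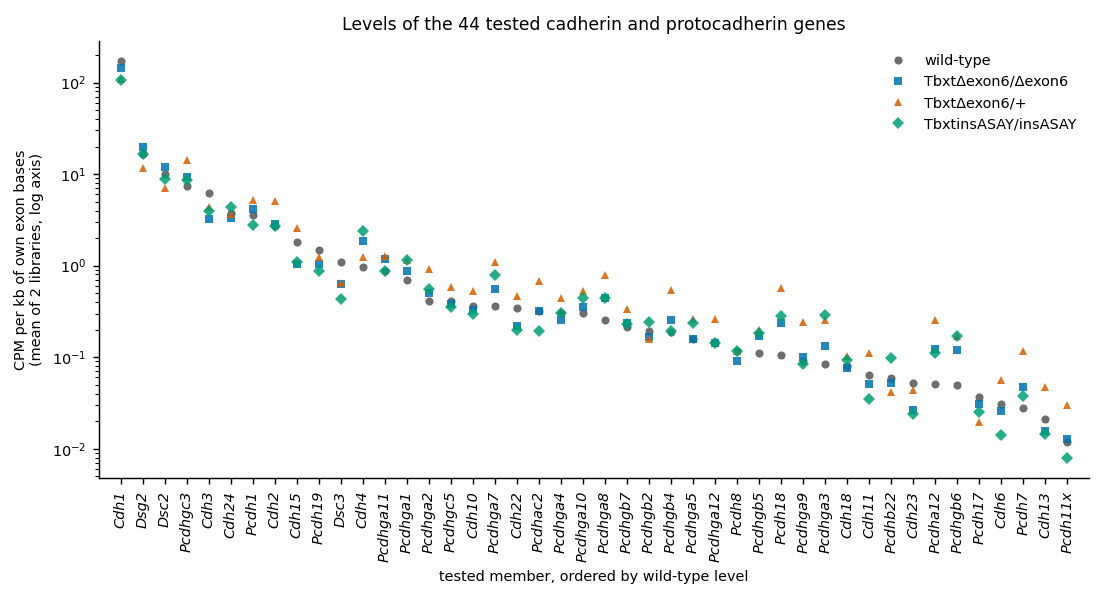
Level of each of the 44 tested members in each line, as the mean CPM per kb of unshared exon bases over 2 libraries, on a log axis, with genes ordered by their wild-type level. *Cdh1* is highest in all 4 lines, at 173 CPM per kb in wild-type cells, and most of the gamma protocadherins lie below 1 CPM per kb.

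A gene was called when its adjusted p was under 0.05 and its log2 fold change passed 0.5 in size. In Δ/Δ cells 6 of the 44 tested members were called against wild-type, 2 higher and 4 lower. That is 13.6% of the members beside 12.7% of the 17049 genes tested, of which 6.12% were higher and 6.59% lower. In Δ/+ cells 22 were called, 19 higher and 3 lower, which is 50% beside 13.5% of all genes. Of all genes 6.6% were higher and 6.89% lower. In ins/ins cells 11 were called, 6 higher and 5 lower, 25% beside 21.3% of all genes, with 11.5% higher and 9.85% lower. The median log2 fold change of the tested members was 0.67 in Δ/+ cells, beside −0.00059 over all genes, 0.033 beside −0.0096 in Δ/Δ cells and −0.0037 beside −0.0051 in ins/ins cells. Members that passed the filter through 1 line alone are included in these counts. For 5 members that line was Δ/+, which favours a rise there. Among the other 39, 20 were called in Δ/+ cells, 17 higher and 3 lower, and the counts of 6 and 11 in the other lines were unchanged. The 39 still include *Pcdhga3* and *Pcdhgb6*, which passed through their Δ/+ and ins/ins counts, and this favours a rise in both lines. Of the 27 members with at least 10 reads in every library, 17 were called in Δ/+ cells, 14 higher and 3 lower. The share of all genes called under that rule is not given here, so this count is a description only. The count of 22 fell to 13 with DESeq2, which called 1764 of the 17049 genes. It also fell without wild-type replicate 2 and without Δ/+ replicate 1. The count of 6 in Δ/Δ cells rose to 11 without Δ/Δ replicate 1.

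**Figure D2:**
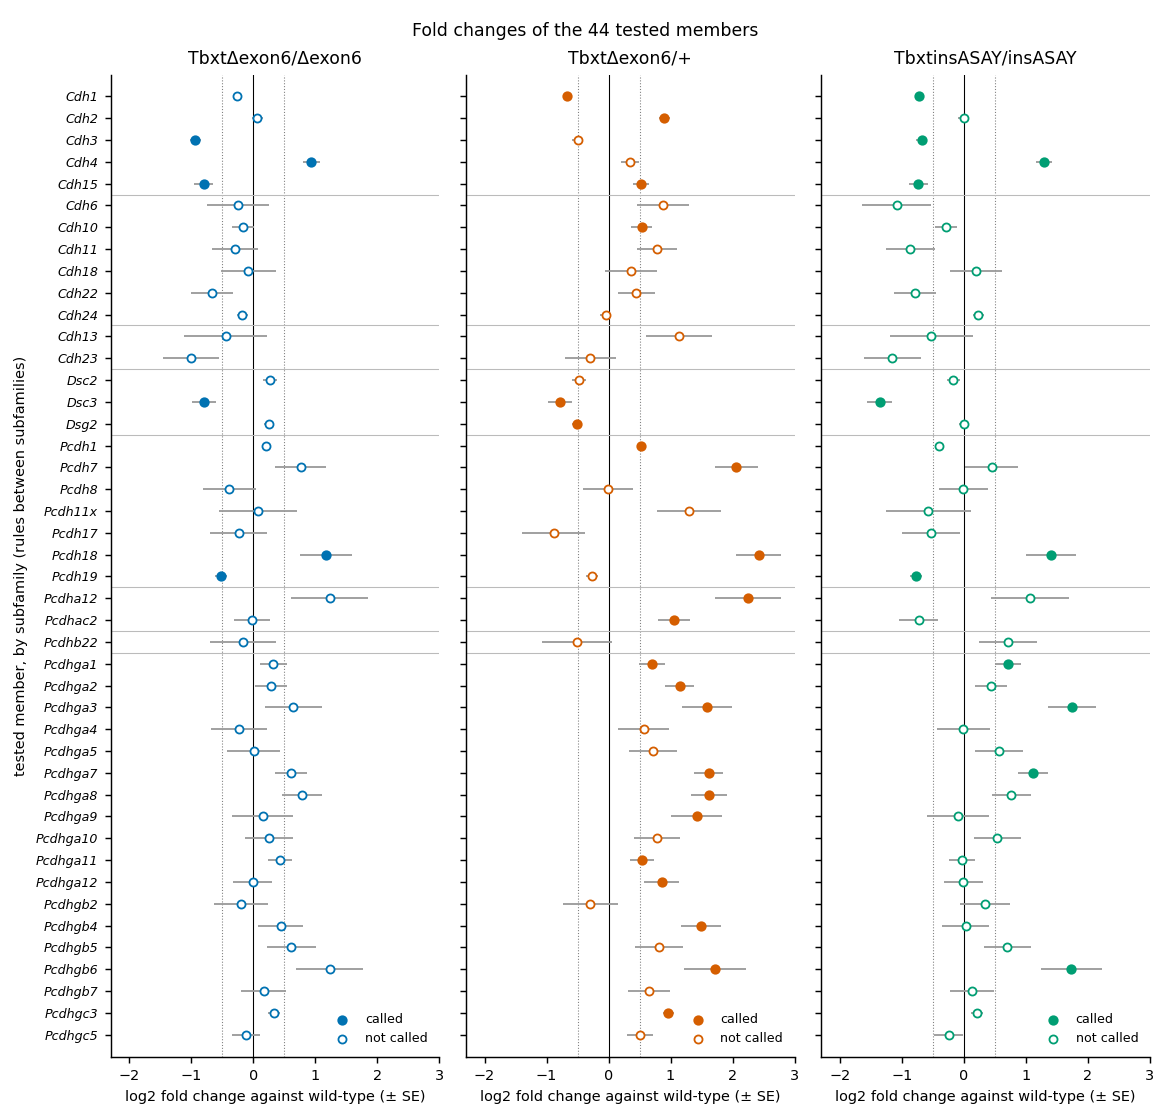
Log2 fold change against wild-type (± SE) of the 44 tested members in the 3 mutant lines, grouped by subfamily. Filled points are called genes and dotted lines mark 0.5 in either direction. The 22 filled points in Δ/+ cells include 13 clustered protocadherins, all to the right of 0, where Δ/Δ cells have no filled point. Of these 13, *Pcdha12* and *Pcdhga9* passed the filter through their Δ/+ counts alone.

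Markers of ES cells and of other cells moved with the lines. The 10 ES cell markers summed to 1203 to 1248 CPM in wild-type, 584 to 758 in Δ/Δ, 680.3 to 681.5 in Δ/+ and 800.1 to 842 in ins/ins libraries. The 12 fibroblast markers summed to 68.1 to 75.9, 47.6 to 49.4, 93.4 to 100.3 and 42.1 to 42.3 CPM in the same order, with *S100a4* at 0 in all libraries and *Postn* at 2 reads or fewer. Of the 9 tested neural markers 4 rose in Δ/+ cells, *Sox1*, *Pax6*, *Zic1* and *Pou3f2*, while *Tubb3* fell, beside 6.6% of all genes higher and 6.89% lower. *Nes*, the most abundant, was at −0.43 ± 0.11 there (adjusted p = 0.0097) and was not called. In Δ/Δ cells 2 rose, *Nes* and *Tubb3*, and in ins/ins cells 1, *Tubb3*, beside 6.12% and 11.5% of all genes. The neural sum was 135.9 to 136.4, 189.6 to 240.0, 131.7 to 132.7 and 159.5 to 172.8 CPM. The 12 primitive streak and mesoderm markers summed to 23.9 to 26.5, 28.2 to 29.6, 16.4 to 19.1 and 22.2 to 25.4 CPM, the 8 endoderm markers to 34.2 to 36.5, 21.8 to 28.1, 49.1 to 54.1 and 28.2 to 28.5 CPM, and the 5 endothelial markers to 10.0 to 11.0, 5.98 to 6.28, 6.13 to 6.83 and 8.56 CPM. *Msgn1* had at most 2 reads. Genes of a list moved apart, and a few genes weighed most in a sum. In Δ/+ cells 1 ES cell marker, *Sox2*, was called higher and 7 lower, beside 6.6% and 6.89% of all genes. Of the 8 tested fibroblast markers 3 were called higher there and 1, *Col3a1*, lower, with *Fbln2* at a mean of 24.9 CPM in wild-type and 49.1 in Δ/+ cells. In Δ/Δ and ins/ins cells 6 and 4 of the 10 ES cell markers were called lower. Of the fibroblast markers 4 and 6 were lower in those lines, beside 6.59% and 9.85% of all genes. In both lists 0 were called higher there. In Δ/Δ cells *Eomes* was called higher (means of 14.0 and 20.4 CPM), and *Tbxt* and *Mesp2* lower. The part of these markers in the differences of the cadherin genes was not tested.

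The type I classical cadherins moved in different directions. *Cdh1* (ENSMUSG00000000303, chr8:106603351-106670246 on GRCm38), which encodes E-cadherin, measured 768 and 818 CPM in wild-type, 675 and 651 in Δ/Δ, 469 and 529 in Δ/+ and 469.8 and 495 in ins/ins libraries. Every mutant library lay below both wild-type libraries, and the Δ/+ and ins/ins libraries overlapped each other. The log2 fold change was −0.67 ± 0.06 (SE; adjusted p = 2.8e-06) in Δ/+ and −0.72 ± 0.06 (adjusted p = 2.7e-06) in ins/ins cells. In Δ/Δ cells it was −0.26 ± 0.06 (adjusted p = 0.0043), short of the fold required. In bulk samples fewer cells of a type and less RNA per cell cannot be told apart.

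*Cdh2* (ENSMUSG00000024304, chromosome 18) rose in Δ/+ cells. It measured 23.4 and 20.9 CPM in wild-type, 21.5 and 24.7 in Δ/Δ, 41.1 and 41.6 in Δ/+ and 22.9 and 21.3 in ins/ins libraries. Both Δ/+ libraries stood above the 6 others, which overlapped. The log2 fold change was 0.90 ± 0.09 (adjusted p = 5.7e-06), a 1.87-fold level. In Δ/Δ cells it was 0.06 ± 0.09 and in ins/ins cells −0.0032 ± 0.09, with adjusted p of 0.61 and 0.98. The ratio of *Cdh1* to *Cdh2* per kilobase was 58.0 and 69.1 in the wild-type libraries, 55.4 and 46.5 in Δ/Δ, 20.1 and 22.4 in Δ/+ and 36.2 and 41.1 in ins/ins libraries. *Cdh1* thus remained the more abundant of the pair in each of the 8 libraries.

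*Cdh3* (ENSMUSG00000061048, chr8:106510891-106557297) lies 46.1 kb from *Cdh1*. It measured 26.64 and 28.02 CPM in wild-type, 14.8 and 13.9 in Δ/Δ, 18.1 and 20.6 in Δ/+ and 17.3 and 16.9 in ins/ins libraries. All 6 mutant libraries lay below wild-type. It fell in Δ/Δ cells, by 0.93 ± 0.09 on the log2 scale (adjusted p = 3.3e-05), and in ins/ins cells, by 0.68 ± 0.09 (adjusted p = 5.1e-05). In Δ/+ cells the change of −0.50 ± 0.09 (adjusted p = 0.00068) lay at the threshold of the fold and was not called. The other 122 tested genes within 5 Mb of the *Cdh1* and *Cdh3* pair had median log2 fold changes of −0.060, 0.052 and −0.011 in Δ/Δ, Δ/+ and ins/ins cells.

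*Cdh4* (ENSMUSG00000000305, chr2:179442431-179899373), which encodes R-cadherin, went the other way. It measured 5.96 and 8.15 CPM in wild-type, 12.5 and 14.4 in Δ/Δ, 8.63 and 9.24 in Δ/+ and 17.6 and 17.1 in ins/ins libraries. Every mutant library lay above both wild-type libraries. It rose by 0.93 ± 0.14 on the log2 scale (adjusted p = 0.00034) in Δ/Δ and by 1.30 ± 0.13 (adjusted p = 1.1e-05) in ins/ins cells. The change in Δ/+ cells was 0.34 ± 0.14 (adjusted p = 0.088).

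*Cdh15* (ENSMUSG00000031962, chr8:122847966-122867397) encodes M-cadherin, known from muscle. It measured 5.41 and 6.29 CPM in wild-type, 3.40 and 3.30 in Δ/Δ, 8.82 and 8.01 in Δ/+ and 3.75 and 3.29 in ins/ins libraries. The Δ/+ libraries lay above wild-type and the libraries of the other two lines below it. The log2 fold changes were −0.80 ± 0.15 (adjusted p = 0.0017), 0.53 ± 0.13 (adjusted p = 0.0093) and −0.73 ± 0.15 (adjusted p = 0.0014) in Δ/Δ, Δ/+ and ins/ins cells. The rise was not called without wild-type replicate 1 or without Δ/+ replicate 1.

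**Figure D3:**
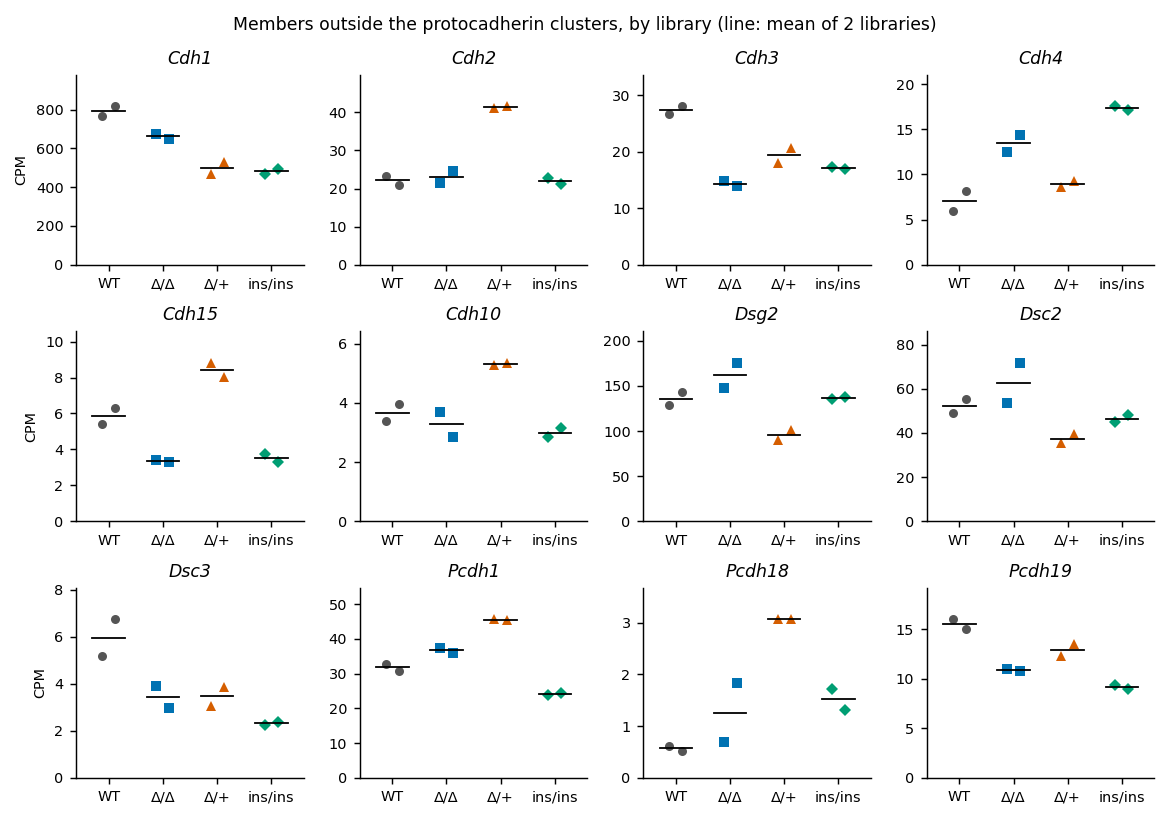
CPM of 12 members outside the protocadherin clusters in each of the 8 libraries (points) with the mean of 2 libraries (lines), on linear axes from 0. *Cdh1* is at 768 and 818 CPM in wild-type and at 529 CPM or less in Δ/+ and ins/ins libraries, while *Cdh2* exceeds 40 CPM only in the Δ/+ libraries.

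Type II cadherins differ from type I in the residues of their adhesive interface and are known for graded expression in the nervous system and mesenchyme. *Cdh24*, the most abundant, had 12.7 and 13.5 CPM in wild-type and was not called in any line. *Cdh10* (chr15:18818947-19014236), expressed in brain, measured 3.39 and 3.94 CPM in wild-type, 3.68 and 2.86 in Δ/Δ, 5.26 and 5.35 in Δ/+ and 2.84 and 3.15 in ins/ins libraries. The Δ/+ libraries stood above the others. It was the 1 type II cadherin called against wild-type, at 0.53 ± 0.17 (adjusted p = 0.026) in Δ/+ cells, and the call was lost with DESeq2 (adjusted p = 0.10) and when any 1 of the 4 libraries compared was left out. In Δ/Δ and ins/ins cells edgeR called 0 of 6, with 0 and 3 at an unadjusted p under 0.05, and DESeq2 also called 0. *Cdh6*, *Cdh11*, *Cdh18* and *Cdh22* had at most 49 reads in a library. *Cdh11*, a cadherin of mesenchyme, had 14 and 17 reads in wild-type, 10 and 14 in Δ/Δ, 28 and 22 in Δ/+ and 7 and 10 in ins/ins libraries, with adjusted p of 0.57, 0.079 and 0.091 in the same order of lines. Neither *Cdh13*, which encodes T-cadherin, nor *Cdh23*, a component of hair cell tip links, was called against wild-type.

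Among the desmosomal cadherins *Dsg2* and *Dsc2*, the pair of simple epithelia, carried most reads. *Dsg2* (chromosome 18), which encodes desmoglein 2, measured 129 and 143 CPM in wild-type, 148 and 176 in Δ/Δ, 89.7 and 101 in Δ/+ and 136 and 138 in ins/ins libraries. The Δ/+ libraries were lowest and the Δ/Δ libraries highest, without overlap between those lines. Against wild-type it fell by 0.51 ± 0.08 (adjusted p = 0.00036) in Δ/+ cells, just past the fold required, and the call was lost without wild-type replicate 2, without Δ/+ replicate 1 and with reads of both strands counted (−0.49). The changes in Δ/Δ and ins/ins cells were 0.26 ± 0.08 (adjusted p = 0.023) and 0.01 ± 0.08 (adjusted p = 0.93).

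*Dsc2*, its desmocollin partner, had 49.1 and 55.4 CPM in wild-type, 53.7 and 71.8 in Δ/Δ, 35.6 and 39.3 in Δ/+ and 44.9 and 48.1 in ins/ins libraries. Its Δ/+ libraries, too, were the lowest. It was not called against wild-type, with −0.48 ± 0.11 (adjusted p = 0.0057) in Δ/+ cells. *Dsc3*, which lies 28.3 kb from *Dsc2* and is known from stratified epithelium, was lower in all 3 lines. It measured 5.16 and 6.74 CPM in wild-type, 3.89 and 2.97 in Δ/Δ, 3.07 and 3.84 in Δ/+ and 2.26 and 2.38 in ins/ins libraries. The log2 fold changes were −0.80 ± 0.19 (adjusted p = 0.0060), −0.79 ± 0.19 (adjusted p = 0.0065) and −1.36 ± 0.20 (adjusted p = 0.00014). Without wild-type replicate 2 the first and second were not called, nor was the second without Δ/+ replicate 1.

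Among the non-clustered protocadherins, most of which belong to the delta group with conserved cytoplasmic motifs, 3 of the 7 tested rose in Δ/+ cells, beside 6.6% of all genes. *Pcdh1* (chromosome 18), the most abundant, measured 32.8 and 30.8 CPM in wild-type, 37.5 and 35.8 in Δ/Δ, 45.6 and 45.5 in Δ/+ and 23.9 and 24.4 in ins/ins libraries. The 4 lines did not overlap. The log2 fold change was 0.52 ± 0.07 (adjusted p = 6.2e-05) in Δ/+ cells, and the call was lost without wild-type replicate 2. In ins/ins cells it was −0.39 ± 0.07 (adjusted p = 0.00046), short of the fold required. *Pcdh7* (chr5:57717967-58133230), an interactor of the phosphatase PP1, had 8 and 8 reads in wild-type, 13 and 13 in Δ/Δ, 28 and 35 in Δ/+ and 10 and 12 in ins/ins libraries, and rose in Δ/+ cells by 2.06 ± 0.35 (adjusted p = 0.00056).

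*Pcdh18* (ENSMUSG00000037892, chr3:49743296-49757325), known from mesoderm and neural tissue of the embryo, was called higher in all 3 lines. It had 17 and 14 reads in wild-type, 17 and 50 in Δ/Δ, 81 and 75 in Δ/+ and 47 and 36 in ins/ins libraries. The 2 clones of Δ/Δ cells disagreed, 1 at the wild-type level in reads and 1 well above it. The log2 fold changes were 1.17 ± 0.42 (adjusted p = 0.044), 2.42 ± 0.36 (adjusted p = 0.00022) and 1.41 ± 0.40 (adjusted p = 0.011). The call in Δ/Δ cells was lost with DESeq2 (adjusted p = 0.053) and in each of the 8 fits without 1 library except that without Δ/Δ replicate 1. Without Δ/Δ replicate 2 the log2 fold change was 0.28 (adjusted p = 0.69). That in ins/ins cells was lost without wild-type replicate 2 or without ins/ins replicate 1. In Δ/+ cells the other 847 tested genes of chromosome 3 had a median log2 fold change of 0.32, and the 34 within 5 Mb of *Pcdh18* one of 0.27, beside −0.0059 and 0.047 in Δ/Δ cells. The part of this shift in the value for *Pcdh18* was not tested.

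*Pcdh19* (ENSMUSG00000051323, chrX:133582860-133688987), which acts with *Cdh2* in adhesion of neural progenitors, fell instead. It measured 16.0 and 15.0 CPM in wild-type, 11.0 and 10.8 in Δ/Δ, 12.3 and 13.5 in Δ/+ and 9.37 and 8.93 in ins/ins libraries. All mutant libraries lay below wild-type. The log2 fold changes were −0.51 ± 0.10 (adjusted p = 0.0017) in Δ/Δ and −0.76 ± 0.10 (adjusted p = 5.5e-05) in ins/ins cells. In Δ/+ cells the value was −0.27 ± 0.10 (adjusted p = 0.049). The call in Δ/Δ cells was lost without wild-type replicate 1.

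The 250 bases before the start of *Pcdh18* and *Pcdh19* are shown as the promoters of the non-clustered protocadherins that were called in at least 2 lines, and in opposite directions. They are RefSeq sequences on GRCm38.p6, read on the minus strand from chr3:49757317-49757566 and chrX:133688994-133689243. Capitals mark the CCAAT box and the GC box GGGCGG, common elements of core promoters, on either strand, and no 2 of them overlap.
Pcdh18: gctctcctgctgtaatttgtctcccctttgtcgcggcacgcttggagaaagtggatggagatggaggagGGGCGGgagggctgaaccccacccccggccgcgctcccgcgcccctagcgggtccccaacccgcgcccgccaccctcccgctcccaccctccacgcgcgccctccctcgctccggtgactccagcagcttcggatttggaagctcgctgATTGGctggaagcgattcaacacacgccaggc
Pcdh19: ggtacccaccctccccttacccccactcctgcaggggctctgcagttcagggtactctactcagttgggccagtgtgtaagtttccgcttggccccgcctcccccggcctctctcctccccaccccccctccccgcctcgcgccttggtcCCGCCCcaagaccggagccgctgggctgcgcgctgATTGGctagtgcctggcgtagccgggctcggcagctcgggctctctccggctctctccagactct
Each holds 1 CCAAT box, here as its reverse complement, 32 bases before the start in *Pcdh18* and 65 in *Pcdh19*, and 1 GC box. Of 32851 mouse promoter windows of the same length, 33.8% hold a CCAAT box and 32.7% a GC box. The GC content is 68% and 69.2%, with a median of 52.4% over all windows, and the CpG count is 23 and 16, with a median of 6. Searches on both strands for the E-box CACCTG, the letters that SNAIL and ZEB factors bind, and for the T-box motif TCACACCT found neither in these windows. They are in 17.2% and 1.12% of all windows. The same search gave no match in the windows of *Cdh10*, *Cdh15* and *Pcdh7*, the other called members with an entry that were searched. *Cdh1*, *Cdh3* and *Cdh4* have no entry. The remaining 17 of the 25 members called against wild-type were not searched. The absence of a match thus covers only the 5 windows searched.

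In the protocadherin clusters the gamma genes carried nearly all the reads. Their summed level was 39.7 and 40.1 CPM in wild-type, 46.4 and 53.5 in Δ/Δ, 76.5 and 77.6 in Δ/+ and 51.9 and 46.8 in ins/ins libraries. The Δ/+ sums were the highest, with a mean 1.93 times that of wild-type. The alpha genes summed to 1.37 and 1.38 CPM in wild-type, 1.38 and 1.94 in Δ/Δ, 3.597 and 3.842 in Δ/+ and 1.53 and 1.57 in ins/ins libraries, again highest in Δ/+. The beta genes, which have no constant exon, summed to 0.902 and 0.856 CPM in wild-type, 0.729 and 0.807 in Δ/Δ, 0.606 and 1.02 in Δ/+ and 1.385 and 1.574 in ins/ins libraries. Here the ins/ins libraries were the highest, with a mean 1.68 times that of wild-type. These sums were not tested. The clusters span 257.5 kb (alpha), 259.5 kb (beta) and 180.1 kb (gamma) of chromosome 18.

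*Pcdhgc3* (ENSMUSG00000102918), a C-type gene at the end of the gamma cluster, which is expressed more broadly than the stochastically chosen variable genes, held 56.8% to 64.3% of the gamma reads in the 8 libraries. It measured 24.2 and 25.7 CPM in wild-type, 29.3 and 33.6 in Δ/Δ, 49.2 and 48.2 in Δ/+ and 31.4 and 26.6 in ins/ins libraries. All mutant libraries lay above wild-type, and those of Δ/+ above the rest. The log2 fold change was 0.96 ± 0.09 (adjusted p = 4.8e-06) in Δ/+ cells. In Δ/Δ and ins/ins cells it was 0.34 ± 0.09 (adjusted p = 0.012) and 0.21 ± 0.09 (adjusted p = 0.070). Without *Pcdhgc3* the gamma genes still summed to 15.4 and 14.4 CPM in wild-type and to 27.3 and 29.3 CPM in Δ/+ libraries.

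In Δ/+ cells 11 of the 18 tested gamma genes rose and none fell, beside 6.6% of all genes called higher. Among the 11 is *Pcdhga9*, which passed the filter through its Δ/+ counts alone, so that its choice favours a rise. The same holds for *Pcdhga3* and *Pcdhgb6*, which passed through their Δ/+ and ins/ins counts. The median log2 fold change of the 18 was 0.84. With DESeq2 the count was 5, beside 1764 of all 17049 genes called in either direction. Of the variable genes, *Pcdhga7* had 24 and 37 reads in wild-type, 36 and 53 in Δ/Δ, 93 and 82 in Δ/+ and 66 and 67 in ins/ins libraries. It rose by 1.62 ± 0.24 (adjusted p = 0.00020) in Δ/+ and by 1.12 ± 0.25 (adjusted p = 0.0024) in ins/ins cells. *Pcdhga8* had 21 and 14 reads in wild-type, 22 and 36 in Δ/Δ, 58 and 43 in Δ/+ and 31 and 29 in ins/ins libraries, with a rise of 1.62 ± 0.29 (adjusted p = 0.00095) in Δ/+ cells. In both genes the Δ/+ libraries lay above all others.

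*Pcdhga2* had 27 and 31 reads in wild-type, 37 and 30 in Δ/Δ, 64 and 56 in Δ/+ and 37 and 42 in ins/ins libraries, and rose by 1.15 ± 0.24 (adjusted p = 0.0024) in Δ/+ cells. *Pcdhgb4* had 22 and 15 reads in wild-type, 20 and 28 in Δ/Δ, 40 and 57 in Δ/+ and 15 and 23 in ins/ins libraries, and rose by 1.49 ± 0.32 (adjusted p = 0.0032) in Δ/+ cells. These 2 genes, too, were highest in the Δ/+ libraries. *Pcdhga1*, the first gene of the cluster, had 70 and 55 reads in wild-type, 71 and 78 in Δ/Δ, 80 and 108 in Δ/+ and 100 and 106 in ins/ins libraries, and rose in Δ/+ cells by 0.69 ± 0.21 (adjusted p = 0.022) and in ins/ins cells by 0.72 ± 0.21 (adjusted p = 0.012). Neither call held without wild-type replicate 2, without replicate 2 of its own line, or with reads of both strands counted (log2 fold changes of 0.47 and 0.38). The first was also lost with DESeq2 (adjusted p = 0.059). *Pcdhga11* had 70 and 57 reads in wild-type, 70 and 93 in Δ/Δ, 80 and 92 in Δ/+ and 62 and 63 in ins/ins libraries. Its rise of 0.54 ± 0.19 (adjusted p = 0.049) in Δ/+ cells was lost with DESeq2 (adjusted p = 0.17), with reads of both strands counted (adjusted p = 0.19) and without any 1 of the 6 libraries of wild-type, Δ/+ and ins/ins cells.

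The other called gamma genes were under 1 CPM on average and are given by their counts. *Pcdhga3*, *Pcdhga9*, *Pcdhga12* and *Pcdhgb6* had 3 to 19 reads in the wild-type libraries and 11 to 32 in the Δ/+ libraries. All 4 rose in Δ/+ cells, by 0.86 to 1.72 on the log2 scale, *Pcdhga9* having passed the filter through its Δ/+ counts alone. In ins/ins cells 4 gamma genes rose, *Pcdhga1*, *Pcdhga3*, *Pcdhga7* and *Pcdhgb6*, where 11.5% of all genes were called higher. *Pcdhga3* and *Pcdhgb6* had 3 to 7 reads in the wild-type libraries and 11 to 22 in the Δ/+ and ins/ins libraries. These 2 genes passed the filter through their Δ/+ and ins/ins counts, so that their choice favours a rise in both lines. In Δ/Δ cells edgeR called 0 of 18 gamma genes, with 5 at an unadjusted p under 0.05, and DESeq2 also called 0. Their median log2 fold change there was 0.30. *Pcdhgb2* was the 1 tested gamma gene with a negative log2 fold change in Δ/+ cells, −0.29 ± 0.44 (adjusted p = 0.66).

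**Figure D4:**
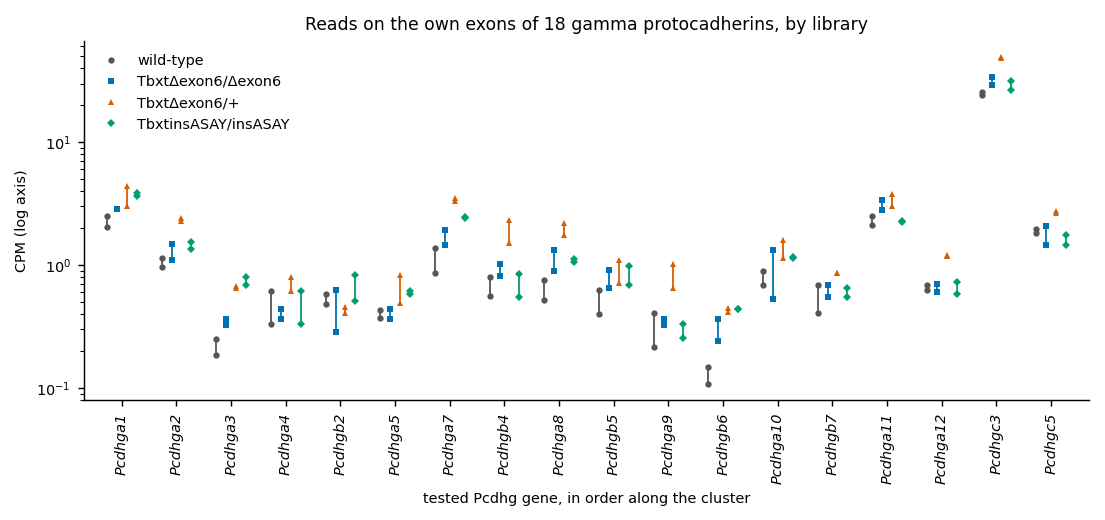
CPM of the 18 tested gamma protocadherins, in their order along the cluster, on a log axis, with 1 point for each library and a line joining the 2 libraries of a line. *Pcdhgc3* lies at 24.2 to 49.2 CPM and the other 17 genes below 5 CPM, and in 17 of the 18 genes the mean of the Δ/+ libraries exceeds that of wild-type.

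Both tested alpha genes were called higher in Δ/+ cells, beside 6.6% of all genes, but 1 of them, *Pcdha12*, was tested only through its Δ/+ counts. *Pcdhac2*, the C-type gene next to the constant exons, had 25 and 28 reads in wild-type, 22 and 28 in Δ/Δ, 46 and 57 in Δ/+ and 18 and 14 in ins/ins libraries. The log2 fold change was 1.06 ± 0.25 (adjusted p = 0.0063) in Δ/+ and −0.73 ± 0.32 (adjusted p = 0.075) in ins/ins cells. The call was lost with DESeq2 (adjusted p = 0.061), without wild-type replicate 1 and without Δ/+ replicate 2. *Pcdha12* had 5 and 2 reads in wild-type and 18 and 14 in Δ/+ libraries, and passed the filter through the latter alone. Its log2 fold change of 2.25 ± 0.53 is therefore a description only. DESeq2 called neither of the 2 alpha genes. *Pcdhb22*, the 1 tested beta gene, had 5 to 22 reads in the 8 libraries and was not called in any comparison. The 101 other tested genes in and within 5 Mb of the clusters had median log2 fold changes of 0.070, −0.052 and 0.035 in Δ/Δ, Δ/+ and ins/ins cells. Genes of a cluster share promoter elements and enhancers and overlap on the genome, so that they are not independent of each other.

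The mutant lines were also compared with each other within the same fit. Between ins/ins and Δ/Δ cells 1 of 44 members was called, 2.27% beside 5.16% of all genes, with 2.79% higher and 2.38% lower. It was *Pcdh1*, lower in ins/ins cells by 0.60 ± 0.07 on the log2 scale (adjusted p = 9.4e-05). For Δ/+ cells against Δ/Δ cells 20 members were called, 17 higher in Δ/+ and 3 lower, 45.5% beside 22.2% of all genes, with 11.2% higher and 11% lower. Against Δ/+ cells, ins/ins cells had 24 members called, 2 higher and 22 lower, 54.5% beside 27.5% of all genes, with 14.6% higher and 13% lower. These last 2 comparisons share the Δ/+ libraries. In them 5 of the 44 members, *Cdh6*, *Cdh13*, *Pcdh11x*, *Pcdha12* and *Pcdhga9*, had passed the filter through their Δ/+ counts alone, so that their choice favours a difference from Δ/+ cells. Among the other 39, 18 were called for Δ/+ against Δ/Δ cells (15 higher and 3 lower) and 19 for ins/ins against Δ/+ cells (2 higher and 17 lower).

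Among the abundant members, *Cdh2* was higher in Δ/+ than in Δ/Δ cells by 0.84 ± 0.09 (adjusted p = 6.2e-06), and lower in ins/ins than in Δ/+ cells by 0.91 ± 0.09 (adjusted p = 2.5e-06). *Pcdhgc3* differed by 0.63 ± 0.09 (adjusted p = 7.6e-05) and −0.75 ± 0.09 (adjusted p = 1.5e-05) in the same comparisons. *Dsg2* was lower in Δ/+ than in Δ/Δ cells, with −0.76 ± 0.08 (adjusted p = 8.2e-06), as was *Dsc2*, with −0.75 ± 0.11 (adjusted p = 0.00014). *Cdh4* was higher in ins/ins than in Δ/+ cells by 0.96 ± 0.13 (adjusted p = 5.1e-05). For *Cdh1* the difference between ins/ins and Δ/+ cells was −0.05 ± 0.06 (adjusted p = 0.51). Several weakly expressed cadherins that were not called against wild-type were called here. *Cdh6*, *Cdh11*, *Cdh13*, *Cdh22* and *Pcdh11x* were lower in ins/ins than in Δ/+ cells, with log2 differences of −1.96 to −1.24. They had 2 to 22 reads in the ins/ins libraries and 10 to 49 in the Δ/+ libraries. For *Cdh6*, *Cdh13* and *Pcdh11x* the difference is a description only, given how they passed the filter.

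The proteins that cadherins bind inside the cell were measured as well. Of 14 genes for catenins and the adherens junction plaque 13 were tested, and 0, 5 and 1 were called in Δ/Δ, Δ/+ and ins/ins cells, beside 12.7%, 13.5% and 21.3% of all genes. In Δ/Δ cells edgeR gave 6 at an unadjusted p under 0.05, and DESeq2 also called 0. *Ctnnb1*, which encodes β-catenin, had log2 fold changes of 0.11 ± 0.04, 0.25 ± 0.04 and 0.23 ± 0.04 in the 3 lines. *Ctnna1* (α-catenin) had −0.04 ± 0.05, −0.34 ± 0.05 and −0.29 ± 0.05, and *Ctnnd1* (p120-catenin) 0.10 ± 0.08, −0.37 ± 0.08 and −0.19 ± 0.08. None of the 3 was called. *Jup*, which encodes plakoglobin, a catenin of both junctions, fell by 0.81 ± 0.09 (adjusted p = 1.9e-05) in Δ/+ cells. *Nectin2*, an adhesion receptor beside cadherins, fell there by 0.51 ± 0.05 (adjusted p = 1.0e-05), and *Ctnnd2*, the neural δ-catenin, rose by 1.05 ± 0.14 (adjusted p = 0.00011). The other 2 called there, *Ctnna2* (higher) and *Nectin4* (lower), were named after their values were seen. *Vcl*, vinculin, was the 1 called in ins/ins cells, lower by 0.56 ± 0.05 (adjusted p = 6.9e-06).

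Of 8 genes for the desmosomal plaque, 3 fell in Δ/+ cells, beside 6.89% of all genes, *Pkp3* (plakophilin 3), *Perp* and *Evpl* (envoplakin), by 0.67 to 0.92 on the log2 scale, while *Dsp*, desmoplakin, was at −0.16 ± 0.17 (adjusted p = 0.52). Of 12 epithelial and tight junction genes, 5 fell in Δ/+ cells and none rose, beside 6.89% of all genes called lower and 6.6% higher. *Cldn6* fell by 1.78 ± 0.08 (adjusted p = 1.9e-08), *Cldn7* by 1.51 ± 0.10 (adjusted p = 4.0e-07), *Cldn4* by 1.33 ± 0.05 (adjusted p = 1.1e-08), *Ocln*, occludin, by 0.87 ± 0.09 (adjusted p = 8.4e-06) and *Epcam* by 0.52 ± 0.05 (adjusted p = 1.0e-05). In ins/ins cells 2 of the 12 rose and 3 fell, beside 11.5% and 9.85% of all genes, and in Δ/Δ cells 2 rose and 1 fell, beside 6.12% and 6.59%. *Epcam* was at 0.045 ± 0.05 and −0.05 ± 0.05 in those lines.

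Of 13 transcription factors known for epithelial-mesenchymal transition 12 were tested, and 3, 5 and 4 were called in Δ/Δ, Δ/+ and ins/ins cells, beside 12.7%, 13.5% and 21.3% of all genes. *Zeb2*, a repressor of *Cdh1*, rose in Δ/+ cells by 0.95 ± 0.11 (adjusted p = 4.0e-05), and *Ovol2*, a keeper of the epithelial state, fell there by 1.21 ± 0.21 (adjusted p = 0.00072). Neither was called in Δ/Δ cells (0.16 ± 0.12 and −0.06 ± 0.18) or in ins/ins cells (−0.33 ± 0.12 and 0.20 ± 0.18), where *Cdh1* was called lower too. A link of these factors to *Cdh1* was not tested. *Zeb1* rose in Δ/Δ cells by 0.72 ± 0.08 (adjusted p = 7.8e-05). *Snai3* fell in all 3 lines, by 0.65 to 0.96. *Snai1* was at 2.63 to 4.30 CPM in the 8 libraries and was not called.

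Of 17 further members of the cadherin superfamily 11 were tested, with 3, 4 and 6 called in the same order of lines, beside the same shares of all genes. *Clstn2*, a calsyntenin of synapses, rose in Δ/+ cells by 1.12 ± 0.12 (adjusted p = 2.0e-05) and fell in ins/ins cells by 1.29 ± 0.15 (adjusted p = 2.2e-05). *Clstn3* and the planar polarity cadherin *Celsr1* fell in Δ/Δ cells, by 0.76 ± 0.08 and 0.68 ± 0.08, and in ins/ins cells, by 0.72 ± 0.08 and 0.66 ± 0.08. *Celsr2*, on chromosome 3, rose in Δ/+ cells by 0.69 ± 0.07 (adjusted p = 7.4e-06), beside the chromosome's median of 0.32. The 15 genes known to regulate clustered protocadherins included *Ctcf*, the cohesin subunits, *Smchd1* and the DNA methyltransferases. Of them 0, 1 and 0 were called in Δ/Δ, Δ/+ and ins/ins cells, beside 12.7%, 13.5% and 21.3% of all genes. In Δ/Δ and ins/ins cells edgeR gave 6 and 9 at an unadjusted p under 0.05, and DESeq2 also called 0. The 1 called was *Setdb1* on chromosome 3, which rose in Δ/+ cells by 0.51 ± 0.05 (adjusted p = 1.0e-05). *Ctcf* was at 0.13 ± 0.05, 0.25 ± 0.05 and 0.25 ± 0.05. Of 11 genes for cadherin proteases and sorting 2 were called, both in Δ/+ cells, beside 13.5% of all genes, and DESeq2 called 1. *Pcsk6* was lower by 0.65 ± 0.07 (adjusted p = 2.0e-05) and *Pcsk5* higher by 0.87 ± 0.25 (adjusted p = 0.017). In Δ/Δ and ins/ins cells edgeR gave 2 and 6 at an unadjusted p under 0.05, and DESeq2 called 0.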

How the data were processed

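RNA was poly(A) selected and made into stranded libraries (NEBNext Ultra II Directional). Per the labels, reads were aligned to mm10 with STAR 2.7.2a, and the authors used DESeq2 1.40.2. The deposited values are raw read counts per gene, in 3 columns for the strand settings. The column for the library's strand was used, since the other strand held 4.11% to 4.78% of reads on genes. The annotation used for counting is not given in the sources used here. Of the 48440 identifiers listed, 48058 are in GENCODE M21, from which symbols, exons and coordinates (GRCm38) were taken. The table of wild-type replicate 1 lacks the 4 summary lines of the others, which were left out of all totals.

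Counts were fitted with edgeR 4.0.16 in R 4.3.3 by quasi-likelihood, with TMM scaling, filterByExpr (minimum count 10, total 15), all 8 libraries and 1 coefficient for each genotype, and p-values were adjusted by Benjamini-Hochberg over the 17049 genes tested. Genes were called at an adjusted p below 0.05 where the log2 fold change also exceeded 0.5 in size. CPM are counts over TMM-scaled library totals. DESeq2 1.42.0, other filters, scalings and strand settings, a TREAT test, fits on 2 genotypes, a replicate block and fits without each library were the alternatives.

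The members and lists were chosen with earlier results of these data known. Named in full were *Cdh1*, *Cdh2*, *Cdh3*, *Dsg2*, *Dsc2* and every member called against wild-type with a mean of at least 1 CPM, and up to 4 called genes of each partner list by smallest adjusted p, with *Ctnnb1*, *Jup*, *Ctnna1*, *Ctnnd1* and *Epcam*. Other members are named for their level or count. The study's methods call the 2 libraries of a line biological replicates without saying, other than for the clones of Δ/Δ, whether they came from separate cultures, so p-values measure the spread between these libraries, which may be technical in part. No 2 libraries of a line agreed within sampling noise. The chi-square per degree of freedom between them was 11.4 in Δ/Δ, 3.47 in wild-type, 3.46 in Δ/+ and 2.80 in ins/ins cells. The fit shared its estimate of the spread over the lines, so p-values do not reflect this inequality.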

Additional observations from a re-analysis of the deposited data

Results flagged for a closer look

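*Cdh15* was called against wild-type in opposite directions in different lines, and the lines differed from each other. It was higher in Δ/+ than in Δ/Δ cells by 1.33 on the log2 scale (adjusted p = 1.2e-05), and the difference of ins/ins from Δ/+ cells was −1.26 (adjusted p = 1.3e-05).

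Reads on the strand opposite to the gene were not used in the comparisons. They were at 10 or more in a library for 6 members, and for *Dsc2* and *Pcdhga12* both libraries of a mutant line exceeded wild-type. *Dsc2* had 5 and 19 such reads in wild-type and 23 and 22 in Δ/Δ libraries. *Pcdhga12* had 7 and 10 in wild-type, 17 and 19 in Δ/Δ and 30 and 13 in ins/ins libraries. These differences were not tested.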

How the results depend on the processing

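The counts of members called (6, 22 and 11 for Δ/Δ, Δ/+ and ins/ins against wild-type, and 20, 1 and 24 for Δ/+ against Δ/Δ, ins/ins against Δ/Δ and ins/ins against Δ/+) varied with the test and the libraries used. DESeq2 gave 13 for Δ/+ against wild-type, 10 for Δ/+ against Δ/Δ and 13 for ins/ins against Δ/+. Of all 17049 genes it called 1764, 3022 and 3804 in these comparisons. For the other alternatives the shares of all genes are not given here. A TREAT test, which asks whether a change exceeds the fold itself, gave 2, 10, 5, 4, 0 and 10 in the order above. Beside the 0, edgeR's quasi-likelihood test gave 13 members at an unadjusted p under 0.05 and DESeq2 called 1. Without a filter the count for ins/ins against Δ/Δ was 2. Without 1 library at a time the counts ran from 4 to 11, 13 to 25, 10 to 14, 15 to 20, 1 to 3 and 15 to 26 in the same order. The 11 was without Δ/Δ replicate 1, the first 13 without wild-type replicate 2 or Δ/+ replicate 1, the 3 without Δ/Δ replicate 2 and the second 15 without Δ/+ replicate 2. The cause of these shifts was not tested. Deviations of same-numbered libraries correlated at −0.00971 to 0.0494, so that the numbers do not pair the samples. With the replicate block the counts were 5, 21, 12, 20, 1 and 24, and *Pcdh18* in Δ/Δ (adjusted p = 0.055) and *Pcdhga11* in Δ/+ cells (adjusted p = 0.060) were not called. Of 640 values of single named genes under the alternatives, 568 stayed on their side of the thresholds, 63 lost a call (17 of them under TREAT), 9 gained one and 0 changed sign after being called. Of the 568, 9 changed sign while uncalled, those of *Cdh2* in Δ/Δ and ins/ins cells and of *Dsg2* in ins/ins cells. Those gained were *Cdh3* in Δ/+ cells under 7 settings and *Dsc2* there under 2. A lone library of a line was assumed to vary like the others. Members under 10 reads in a library are limited by depth.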
